A study of Mus musculus with 60 samples.

Results

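The genes of oxidative phosphorylation described here are the protein-coding genes whose symbol begins with mt-Nd, mt-Co, mt-Cyb, mt-Atp, Ndufa, Ndufb, Ndufc, Ndufs, Ndufv, Uqcr, Cox4 to Cox8 or Atp5, without the assembly factors named Ndufaf, together with Sdha, Sdhb, Sdhc, Sdhd, Cyc1 and Cycs. Of 101 such genes in the Ensembl annotation of GRCm38, 98 were listed in at least 1 of the 3 count tables, which together held 31354 genes. The other 3, Cox8b, Cox8c and a second gene model named Atp5o, were in no table used here, and 13 further name matches were not protein coding. The 98 genes comprised all 13 mitochondrially encoded mRNAs, of which 7 belong to complex I, 1 to complex III (mt-Cytb, the name of mt-Cyb in the annotation), 3 to complex IV and 2 to complex V. The 85 nuclear genes comprised 36 of complex I, 4 of complex II, 9 of complex III, cytochrome c, 18 of complex IV (with Ndufa4 and Ndufa4l2, which were first counted to complex I) and 17 of complex V.

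The machinery of oxidative phosphorylation is assembled from subunits encoded by 2 genomes. Complexes I to IV pass electrons from NADH and succinate to oxygen and complex V, the ATP synthase, uses the proton gradient built by complexes I, III and IV to make ATP. A small number of core subunits of complexes I, III, IV and V are transcribed from the mitochondrial DNA, where both strands are read as long transcripts that are cut into single mRNAs, while all subunits of complex II, cytochrome c and most other subunits come from nuclear genes and are imported. Both sets of mRNA are therefore made, and can change, separately.

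The samples were mouse intrahepatic cholangiocyte organoids, hollow epithelial structures grown from the bile ducts of male C57BL/6N mice given as 3 to 4 months old, without any genetic change or drug treatment. The culture experiment compared 3 cultures in Matrigel domes with 3 shaking suspension cultures in 10% Matrigel, made from pools of 2, 4 and 3 mice that were each grown both ways. The passage experiment compared bulk cultures of Sets 1, 3 and 4, each set from the liver of 1 mouse, early (passage 4) and late (passage 11), with the counts of 2 technical replicates summed for each. The sources used here do not say whether these bulk cultures grew in domes or in suspension at each passage. The third experiment sequenced single organoids from suspension, of which 8, 10, 5 and 12 of Sets 1 to 4 were used after leaving out the same 7 organoids as the study. Set 1 was at passage 11, Sets 2 and 3 at passage 3 and Set 4 at passage 4, so that mouse and passage cannot be told apart between sets. Total RNA was extracted from the bulk cultures and bead-captured mRNA from the single organoids, and the 3 tables were therefore not compared with each other in any test.

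The libraries tagged the 3′ end of mRNAs. Totals ranged from 1776490 to 14761853 counts in the culture experiment, from 639086 to 3175147 in the passage libraries before summing, and from 1059002 to 11175868 in the single organoids used. The 10 ductal markers, which include Krt19, Epcam and Sox9, had counts in every group and summed to between 3850 and 11400 CPM, counts scaled to a library of 1000000. They summed to 7200 to 11400 CPM in domes and 6150 to 6750 CPM in suspension, without overlap, and to 6980 to 7750 CPM at passage 11 and 4670 to 7680 CPM at passage 4. Single ductal markers went both ways, with 6 of the 10 higher and 4 lower in domes than in suspension. Hepatocyte markers summed to 270 to 790 CPM in domes and 243 to 617 CPM in suspension, and to 750 to 1100 CPM at passage 11 and 276 to 690 CPM at passage 4, again without overlap between passages, with Cps1 and Pck1 at 0 in both experiments. Only 4 of the 10 hepatocyte markers had enough counts to be tested between passages, of which 3 were higher and 1 was lower at passage 11. Mesenchymal markers summed to at most 0.691 CPM and endothelial markers to at most 3.83 CPM, with Kdr and Cdh5 at 0. Macrophage markers summed to 6.93 to 93.1 CPM in domes and 3.37 to 9.46 CPM in suspension, with Clec4f and Lyz2 at 0 in both. The part of these marker sums in the results was not tested. In these samples fewer cells of a type and less RNA per cell cannot be told apart.

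For the mitochondrial genes, the first question was which rows of the tables hold their mRNA. The nuclear genome of the mouse carries a stretch of chromosome 1 that is a copy of part of the mitochondrial DNA, annotated as a row of unprocessed pseudogenes on the minus strand. Complete or nearly complete coding sequences of mt-Co2, mt-Atp6, mt-Co3, mt-Nd3 and mt-Nd4l and parts of mt-Co1 and mt-Nd4 are found there. Gm28437 matched 783 bases of mt-Co3 (chr1:24613189-24613971), Gm10925 678 bases of mt-Atp6 (chr1:24613974-24614651) and Gm28661 681 bases of mt-Co2 (chr1:24614885-24615565), all at 100% identity. Since 3′-end libraries read the last bases of an mRNA, the ends of these genes are shown from GRCm38 in the direction of the mRNA, each gene above its copy. Capitals mark the bases of the mitochondrial gene that follow the last base shared with the annotated copy.
mt-Co3, chrM:9330-9390 (+): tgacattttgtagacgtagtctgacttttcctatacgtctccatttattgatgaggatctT
Gm28437, chr1:24613189-24613248 (-): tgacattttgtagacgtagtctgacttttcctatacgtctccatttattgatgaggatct
mt-Co2, chrM:7634-7696 (+): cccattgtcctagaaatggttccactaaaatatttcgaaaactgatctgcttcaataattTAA
Gm28661, chr1:24614885-24614944 (-): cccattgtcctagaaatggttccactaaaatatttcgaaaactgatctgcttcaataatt
mt-Atp6, chrM:8545-8607 (+): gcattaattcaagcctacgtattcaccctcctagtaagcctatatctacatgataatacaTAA
Gm10925, chr1:24613974-24614033 (-): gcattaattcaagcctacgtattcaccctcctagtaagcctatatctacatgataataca

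The lower-case letters were the same in gene and copy, and the only difference was the last 1 or 3 bases, at which the annotated copies stop. Copies of mt-Nd3 (Gm28438, chr1:24612775-24613119) and mt-Co1 (Gm29216, chr1:24615706-24616197) each held 1 substitution, T3C and A1066T, written as the base of the mitochondrial gene, its position from the first base of that gene and the base of the copy. Both lie 345 and 479 bases from the 3′ end of their gene.

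In the deposited tables most counts of these genes stood in the rows of the copies. Over all samples of the culture, passage and single-organoid tables, Gm28437 had 346782, 179574 and 781127 counts and mt-Co3 itself, the third subunit of cytochrome c oxidase, had 2679, 2787 and 2557. Gm28661 had 82061, 59987 and 224743 counts against 24, 66 and 544 in mt-Co2, the subunit that accepts electrons from cytochrome c. Gm10925 had 155588, 129577 and 377048 counts against 2028, 1385 and 1253 in mt-Atp6, the proton channel subunit of the ATP synthase. The order was reversed for mt-Nd4l and mt-Nd4, with 2707 and 107894 counts in the culture table against 3 in Gm10222 and 5 in Gm28439. The match of Gm28439 stops 502 bases before the 3′ end of mt-Nd4, and that of Gm10222 stops 3 bases before the end of mt-Nd4l. The part of these ends in the counts was not tested. The sources used here do not say how reads that match several places were counted. Values of mt-Co1, mt-Co2, mt-Co3, mt-Atp6 and mt-Nd3 are therefore given below as deposited and, in an alternative chosen after the data were seen, with the counts of gene and copy added.

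**Figure D1:**
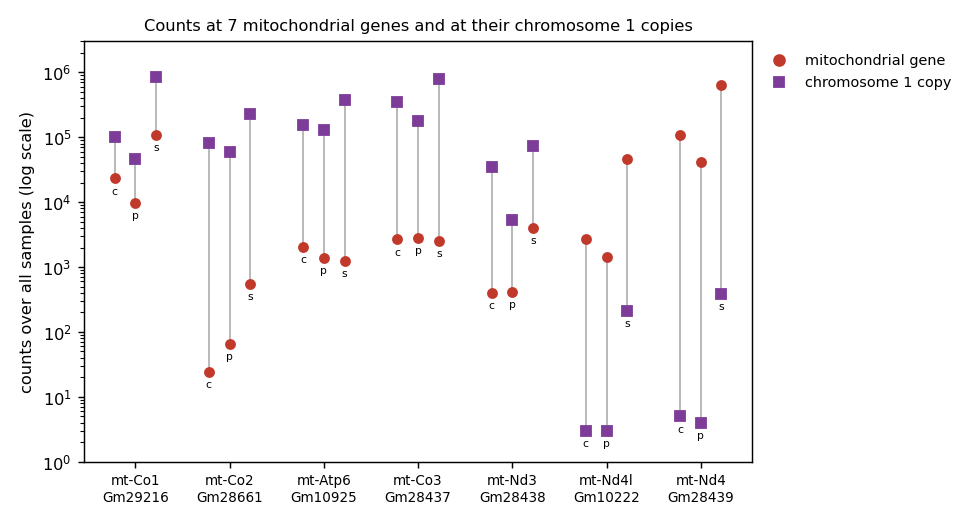
Counts of 7 mitochondrial genes (circles) and of their chromosome 1 copies (squares) on a log axis, summed over all samples of a table. The letters c, p and s stand for the culture, passage and single-organoid tables. For the 5 genes on the left the copy lies above the gene, as for mt-Co3 with 346782 counts in the copy and 2679 in the gene of the culture table, and for mt-Nd4l and mt-Nd4 it lies below.

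Further neighbours limit single rows. mt-Nd6 lies on the opposite strand to the end of mt-Nd5, mt-Atp8 overlaps mt-Atp6 and mt-Nd4l overlaps mt-Nd4, and the sources used here do not say whether the counting used strand. Among nuclear members, Cycs (cytochrome c) shares 99.894% of 946 aligned bases with Gm10053 (chr19:24875686-24876631), which had 11468, 6664 and 22227 counts in the 3 tables against 8819, 3582 and 15036 in Cycs.

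As a first comparison, all counts of the 13 mitochondrial and of the 85 nuclear genes were expressed as shares of a library. In domes the mitochondrial genes took 1.12%, 1.14% and 1.31% of the counts, and in suspension 2.65%, 2.52% and 2.895%, so that the groups did not overlap (1.19% ± 0.106 against 2.69% ± 0.189, SD, n = 3). The nuclear genes took 3.79%, 3.10% and 3.63% in domes and 3.25%, 3.25% and 3.08% in suspension, where the groups overlapped. With the chromosome 1 copies added, the mitochondrial share was 2.25% to 2.75% in domes and 4.63% to 5.13% in suspension. At passage 4 Sets 1, 3 and 4 gave mitochondrial shares of 1.25%, 1.75% and 1.31% and at passage 11 0.656%, 1.10% and 1.25%. All 3 sets were lower at passage 11, with ratios of passage 11 to passage 4 of 0.527, 0.626 and 0.953. In Set 4 the technical replicates gave 1.238% and 1.265% at passage 11 and 1.252% and 1.389% at passage 4. They overlapped, so the difference in Set 4 did not exceed their spread. The ranges of both passages overlapped narrowly. With the copies added they did not overlap, at 2.99%, 4.13% and 3.20% at passage 4 and 1.50%, 2.34% and 2.52% at passage 11 (ratios 0.503, 0.567 and 0.789). The nuclear share went the other way in each set, from 2.66%, 3.18% and 3.20% at passage 4 to 4.01%, 4.09% and 4.05% at passage 11, without overlap.

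The log2 ratio of the mitochondrial to the nuclear share puts both into 1 value per sample. It was −1.76, −1.44 and −1.46 in domes and −0.29, −0.36 and −0.09 in suspension. For Sets 1, 3 and 4 it was −1.10, −0.86 and −1.29 at passage 4 and −2.61, −1.90 and −1.70 at passage 11. In neither experiment did the groups overlap, and the difference between passages within a set was −1.52, −1.04 and −0.41. Single organoids had mean ratios of −0.14 in Set 1, 0.00 in Set 2, 0.13 in Set 3 and −0.22 in Set 4, with SDs of 0.22, 0.33, 0.30 and 0.32, and all 4 ranges overlapped. The widest 95% Wilson interval of a share reached 0.0483 percentage points to either side, but it covers the random sampling of counts only. Technical replicates could differ by more, as in Set 3 at passage 4, with mitochondrial shares of 1.842% and 1.67%. The share of the nuclear long noncoding RNAs Malat1 and Neat1 moved with the same contrasts, from a mean of 0.130% in suspension to 0.0135% in domes and from 0.140% at passage 4 to 0.0196% at passage 11. Its part in the shifts was not tested.

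**Figure D2:**
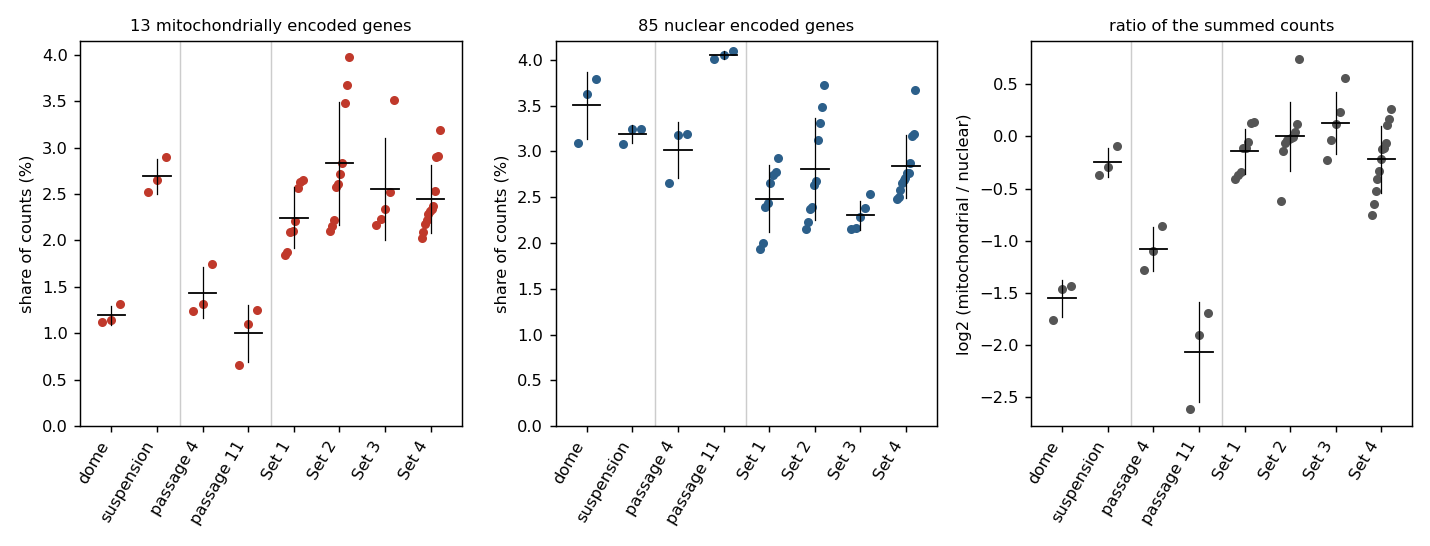
Percent of the counts of a library that fell in mitochondrially encoded and in nuclear encoded oxidative phosphorylation genes, by group, and the log2 ratio of both on the right. Points are samples (passage libraries summed over technical replicates), the line is the mean and the bar the SD. The mitochondrial share separates domes (1.12% to 1.31%) from suspension (2.52% to 2.895%), and the nuclear share separates passage 11 (4.01% to 4.09%) from passage 4 (2.66% to 3.20%).

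To ask which single genes differed between culture methods, the counts of 12699 genes were tested with the quasi-likelihood test of edgeR, and all adj. P-values given here are from that test with Benjamini-Hochberg adjustment over all genes. Log2 fold-changes are dome minus suspension. Of the 13 mitochondrial genes 11 had enough counts to be tested, 6 were lower in domes and none was higher, while 14.7% of all genes tested were called lower. Of the 85 nuclear genes 81 were tested, 23 were higher and 1 was lower, while 15% of all genes were called higher. The median log2 fold-change was −0.76 over the mitochondrial and 0.49 over the nuclear genes tested, against −0.04 over all genes. Nuclear members are abundant, and 758 other genes at or above the lower quartile of their abundance had a median of 0.50 with 281 higher and 50 lower, so the median of the nuclear members lay close to that of other abundant genes.

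The 6 mitochondrial genes called lower all encode subunits of complex I, the NADH dehydrogenase through which most electrons enter the chain, while 10 of the 11 genes tested had a negative value. mt-Nd4 measured 1731, 1878 and 1478 CPM in domes and 3329, 3337 and 3443 CPM in suspension (log2 fold-change −0.99, SE 0.23, adj. P-value 0.0107). mt-Nd4l, which shares a transcript with mt-Nd4, measured 52.8, 44.7 and 29.1 CPM against 90.7, 92.2 and 74.2 CPM (−0.997, SE 0.24, adj. P-value 0.0122). Every dome culture lay below every suspension culture for both genes. Among all 12699 genes tested the groups did not overlap in 6020. mt-Nd1, which forms part of the ubiquinone site, measured 3707, 2410.0 and 2878 CPM against 5937, 5614 and 5986 CPM (−0.96, SE 0.26, adj. P-value 0.0207). mt-Nd5, at the far end of the proton-pumping arm, fell by 0.91 on the log2 scale (adj. P-value 0.0132), and mt-Nd2 and mt-Nd6 fell by 0.76 each (adj. P-values 0.0275 and 0.0241). The seventh subunit of complex I, mt-Nd3, had 8.76, 9.53 and 4.40 CPM against 9.47, 12.8 and 11.2 CPM and was not called (−0.52, adj. P-value 0.207).

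The mitochondrial genes of complexes III, IV and V did not pass the test. mt-Cytb, the electron carrier of complex III, measured 5228, 9806 and 7272 CPM in domes and 11940.0, 11518 and 12295 CPM in suspension. The groups did not overlap, but the spread between domes was wide (−0.68, SE 0.30, adj. P-value 0.116). mt-Cytb was called with DESeq2 (−0.67) and without dome replicate 2 (−0.93, adj. P-value 0.0268). mt-Co1, the catalytic subunit of cytochrome c oxidase, measured 642, 732 and 363 CPM against 504, 639 and 553 CPM and overlapped fully (0.03, adj. P-value 0.939). mt-Co3 overlapped as well (−0.42, adj. P-value 0.241), and mt-Atp6 was at 44.1, 44.0 and 51.1 CPM against 53.2, 52.5 and 56.5 CPM without overlap (−0.23, adj. P-value 0.354). With the counts of the copies added, mt-Co1, mt-Co2, mt-Co3 and mt-Atp6 gave log2 fold-changes of −0.36, −0.22, −0.29 and −0.17, none of them called, and again 6 of 12 tested genes were lower. mt-Nd3 with its copy averaged 470.2 CPM in domes and 971 CPM in suspension (−1.04, SE 0.42, adj. P-value 0.0857), a larger difference than in its own row but again without a call. mt-Co2 and mt-Atp8 had too few counts of their own to be tested (24 in all for mt-Co2). Whether the subunits of complex I differ from those of complexes IV and V in their response was not tested as a difference.

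Among nuclear genes, the largest increase in domes was that of Ndufv3, an accessory subunit of the NADH-binding module of complex I, with 318, 521 and 329 CPM against 174, 162 and 144 CPM (1.28, SE 0.24, adj. P-value 0.00469). Cox4i1, the common form of the largest nuclear subunit of cytochrome c oxidase, followed with 2370.0, 3537 and 1994 CPM against 1178, 1272 and 1119 CPM (1.15, SE 0.27, adj. P-value 0.0113). Uqcrh, the hinge protein of complex III that docks cytochrome c, measured 1258, 1658 and 748 CPM against 584, 621 and 485 CPM (1.12, SE 0.29, adj. P-value 0.0185). In all 3 genes each dome culture exceeded each suspension culture. A lack of overlap was common, in 6020 of all 12699 genes tested and 425 of 758 others of like abundance. Calls in the upward direction came to 12 of 36 tested in complex I, 1 of 4 in complex II and 4 of 9 in complex III. They came to 3 of 14 in complex IV and 3 of 17 in complex V. Beside these, 15% of all genes and 281 of 758 other genes of like abundance were called higher. The counts are therefore not read as a result about a complex.

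The one nuclear gene called lower was Cycs, the soluble electron carrier between complexes III and IV, with 204, 96.0 and 129.8 CPM in domes and 259.9, 276 and 232 CPM in suspension (−0.82, SE 0.27, adj. P-value 0.0417). Its near-identical copy Gm10053 gave −0.80 (adj. P-value 0.0456). Among catalytic and core subunits, Uqcrc1 of complex III rose (0.98, adj. P-value 0.0116). Ndufv1 and Ndufs1, which carry the flavin and iron-sulphur clusters of complex I, gave 0.57 and −0.51 (adj. P-values 0.0556 and 0.193), and Ndufv1 passed with the shared pools modelled (0.0479). Uqcrc2, Uqcrfs1 and Cyc1 of complex III gave 0.32, 0.54 and 0.24, Cox5a 0.32, and the ATP synthase subunits Atp5a1 and Atp5b 0.31 and 0.46, none called. The 4 subunits of complex II, all nuclear, lay close together at 0.53 for Sdha, 0.52 for Sdhb, 0.54 for Sdhc and 0.54 for Sdhd, and for all 4 the groups did not overlap, as was so for 6020 of all 12699 genes tested. Only Sdhd passed the threshold, with 50.3, 46.2 and 46.2 CPM against 35.8, 30.5 and 32.2 CPM (adj. P-value 0.0454), and it lost the call when the shared pools were modelled (adj. P-value 0.0609).

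Several subunits exist in forms that are used in different tissues. The heart and muscle form Cox7a1 rose from a mean of 7.44 CPM in suspension to 13.2 CPM in domes (0.89, adj. P-value 0.0409), and the general form Cox7a2 gave 0.51 (adj. P-value 0.145). The Cox7a1 call rests on few counts and was lost with DESeq2 (adj. P-value 0.0592) and on thinned libraries (0.185). Cox6a1 rose (0.71, adj. P-value 0.0235), and its muscle form Cox6a2 had 1 count in all 6 cultures. Cox4i2, the form induced by low oxygen, did not exceed 0.152 CPM in any culture. Ndufa4l2, another gene known to be induced by low oxygen, was at 0, 14.7 and 0 CPM in the 3 domes and at most 0.0689 CPM in suspension, so a single dome culture held nearly all of its counts. Cox7a2l gave 0.33, Cox6b1 0.43, Cox6b2 −0.36, Ndufa4 0.10, and the 3 genes for the same ring subunit of the ATP synthase, Atp5g1, Atp5g2 and Atp5g3, gave 0.52, 0.57 and 0.15, none called.

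These calls depended on single libraries more than the fold-changes did. When 1 suspension culture was left out, 0 or 1 mitochondrial and 3 to 6 nuclear genes were called, whereas leaving out 1 dome culture gave 6 or 7 mitochondrial and 19 to 33 nuclear calls. The median log2 fold-changes stayed between −0.88 and −0.65 for the mitochondrial and between 0.42 and 0.51 for the nuclear genes. Without suspension replicate 1 only mt-Nd5 was called among the mitochondrial genes, without replicate 3 only mt-Nd4l, and without replicate 2 none. Cycs was not called without dome replicate 2 or 3 or without any 1 of the suspension cultures.

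**Figure D3:**
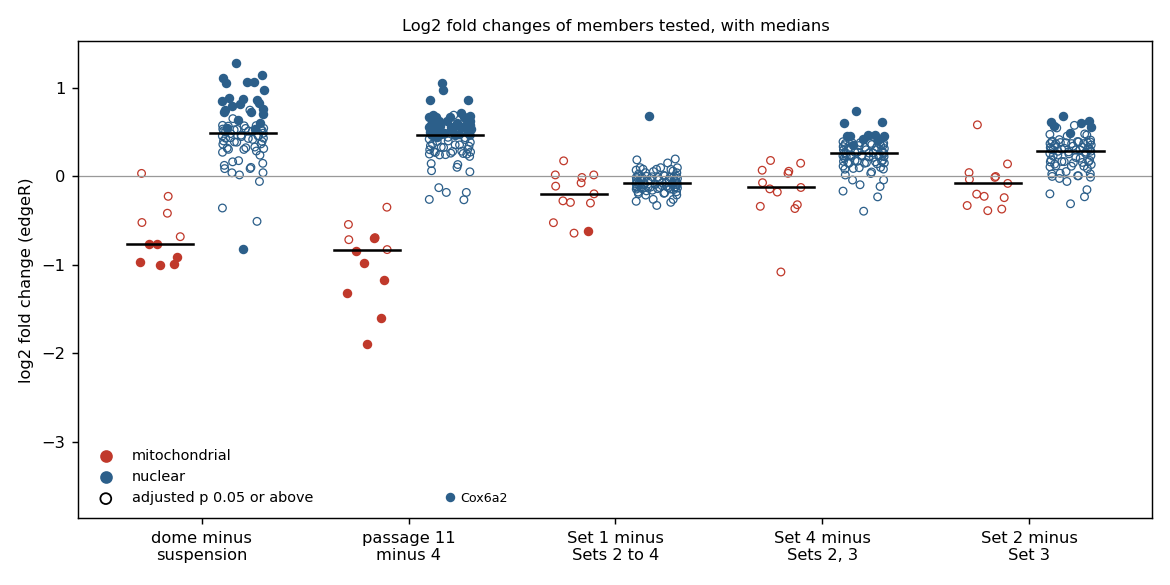
Log2 fold-change of each mitochondrially and nuclear encoded gene tested, in each of the 5 comparisons, with the median as a line. Filled points passed an adj. P-value of 0.05. In both bulk comparisons the mitochondrial genes lie mostly below and the nuclear genes mostly above 0 (medians −0.76 and 0.49 for dome minus suspension, −0.84 and 0.47 for passage 11 minus passage 4), with Cox6a2 at −3.62 as the lowest point.

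The passage experiment asked what changes when the same sets are kept in culture, and log2 fold-changes are passage 11 minus passage 4 over 13738 genes tested. Of 12 mitochondrial genes tested 7 were lower and none was higher, with 10.1% of all genes called lower. Of 82 nuclear genes tested 38 were higher and 1 was lower, and 10.1% of all genes were called higher. The medians were −0.84 for the mitochondrial genes, 0.47 for the nuclear genes and −0.05 for all genes. Here other genes of like abundance did not share the shift, as 1018 of them had a median of 0.08, with 204 higher and 96 lower. All 12 mitochondrial genes had a negative value, and 76 of the 82 nuclear genes a positive one. The passages did not overlap in 10 of the mitochondrial and 65 of the nuclear genes tested. The same was so for 5424 of all 13738 genes and for 480 of the 1018 others of like abundance.

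Genes of complex IV were among the mitochondrial genes that fell at passage 11. mt-Co1 measured 137, 209.6 and 197 CPM at passage 11 of Sets 1, 3 and 4 and 675, 521 and 446 CPM at passage 4 (−1.60, SE 0.20, adj. P-value 0.00119). mt-Co3 measured 72.7, 78.9 and 69.3 CPM against 129.6, 152 and 117 CPM (−0.85, SE 0.14, adj. P-value 0.00422). mt-Co2 fell as well (−1.90, adj. P-value 0.0327), but on only 11 counts at passage 11 and 55 at passage 4, and the call was lost with DESeq2 and on thinned libraries. With the copies added, the sums for mt-Co1, mt-Co2, mt-Co3 and mt-Atp6 gave −1.49, −1.02, −0.73 and −0.75, and 7 of 12 genes were called. The copies alone also fell for these 4 genes, by 1.47 for Gm29216, 1.02 for Gm28661, 0.73 for Gm28437 and 0.75 for Gm10925 (adj. P-values 0.00121 to 0.0279).

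In complex I, mt-Nd4l measured 17.7, 37.0 and 37.5 CPM at passage 11 and 90.5, 75.6 and 60.5 CPM at passage 4 (−1.32, SE 0.27, adj. P-value 0.00812). mt-Nd5 measured 50.7, 82.5 and 97.3 CPM against 222, 156 and 133 CPM (−1.17, SE 0.25, adj. P-value 0.0111). mt-Nd2 measured 249.98, 414 and 440.1 CPM against 693, 816 and 653 CPM (−0.97, adj. P-value 0.0107). In each of these genes Set 1 had the lowest value at passage 11, and no passage 11 value reached a passage 4 value. Among all 13738 genes tested the passages did not overlap in 5424. mt-Atp6 fell by 0.70 (adj. P-value 0.0424), but the call was lost on thinned libraries (0.0905), without Set 1 or Set 3 at passage 11 (0.127 and 0.105), without Set 3 or Set 4 at passage 4 (0.168 and 0.0824) and with technical replicate 2 only (0.089). mt-Nd4, mt-Nd6 and mt-Nd1 were at −0.72, −0.83 and −0.54 without overlap and were not called (adj. P-values 0.0523, 0.0567 and 0.0821). With the set as a block, which compares each set with itself, these 3 were called (−0.75, −0.88 and −0.55, adj. P-values 0.00825, 0.00591 and 0.0372), making 10 mitochondrial calls. mt-Cytb had 3194, 5222 and 5401 CPM against 4706, 7679 and 5193 CPM, so that Set 4 was not lower (−0.35, adj. P-value 0.339), and mt-Nd3 gave −0.69 (adj. P-value 0.157).

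In the ATP synthase 11 of 17 nuclear genes tested rose. Of all genes 10.1% were called higher, and of others of like abundance 204 of 1018. Atp5g3, 1 of 3 genes for the c-ring subunit that turns with the proton flow, measured 1363, 1416 and 1617 CPM at passage 11 and 572, 796 and 754 CPM at passage 4 (1.05, SE 0.16, adj. P-value 0.00281). Atp5g1 for the same protein measured 758, 728 and 771 CPM against 345, 453 and 439.6 CPM (0.87, SE 0.15, adj. P-value 0.00402), while the third gene, Atp5g2, gave 0.27 and was not called (adj. P-value 0.154). The catalytic subunits Atp5a1 and Atp5b rose by 0.72 and 0.56 (adj. P-values 0.00563 and 0.0166). Ndufb10, an accessory subunit of the membrane arm of complex I, measured 394, 432 and 484 CPM against 165, 258 and 244 CPM (0.97, SE 0.18, adj. P-value 0.00617). In Atp5g3, Atp5g1 and Ndufb10 the passages did not overlap, as was so for 5424 of all 13738 genes tested.

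In the other complexes 14 of 36 tested genes of complex I, 2 of 4 of complex II, 4 of 9 of complex III and 6 of 15 of complex IV rose. As for the ATP synthase, these counts stand beside 10.1% of all genes and 204 of 1018 others of like abundance. A difference between complexes was not tested, so the counts are not read as a result about a complex. Cyc1 and Uqcrc1 of complex III rose by 0.67 and 0.60 (adj. P-values 0.00724 and 0.00989), and Uqcrc2 and Uqcrfs1 gave 0.34 and 0.40 (0.0883 and 0.0527). Cox5a rose by 0.67 (adj. P-value 0.00563), Ndufv1 by 0.58 (0.0103), and Ndufs1 gave 0.30 (0.164). Of complex II, Sdhd rose from 48.5, 51.6 and 58.8 CPM to 69.3, 88.7 and 101 CPM (0.69, adj. P-value 0.0163) and Sdha by 0.48 (0.0361), where the Sdha call was lost on thinned libraries (0.0668), in 5 of 6 fits without 1 library and with either technical replicate alone. Sdhb and Sdhc gave 0.25 and 0.44 (0.24 and 0.067), and Sdhc passed with the set as a block (0.049). Cycs, which had been lower in domes, rose here by 0.56 (adj. P-value 0.0219), as did Gm10053 by 0.48 (0.0422).

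Among the tissue forms, Cox6a1, Cox6b1 and Cox7a2 rose (0.47, 0.62 and 0.57, adj. P-values 0.0491, 0.0175 and 0.0496), and Cox4i1, Cox7a1, Cox7a2l, Cox6b2 and Ndufa4 gave 0.24, 0.69, −0.13, −0.18 and 0.56 without a call. The calls of Cox6a1 and Cox7a2 were lost on thinned libraries and without most single libraries. The only nuclear gene to fall was Cox6a2, the form of heart and muscle, with 0, 2 and 0 counts at passage 11 and 17, 13 and 6 counts at passage 4 (adj. P-value 0.0215). Its fitted log2 fold-change of −3.62 rests on 38 counts in all, and the call was lost without Set 1 at either passage or without Set 3 at passage 4. Cox4i2 had 1 count at each passage, and Ndufa4l2 was not listed in that table.

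Leaving out 1 library gave 5 to 10 mitochondrial calls. There were 5 without Set 1 at passage 11, Set 3 at passage 4 or Set 4 at passage 4, and 10 without Set 4 at passage 11. For nuclear genes the count ranged from 16, without Set 3 at passage 11, to 35, and it was 20, 22 and 23 without Set 1, 3 or 4 at passage 4. The medians stayed between −0.98 and −0.67 and between 0.37 and 0.50. The mitochondrial ribosomal RNAs mt-Rnr1 and mt-Rnr2, which are transcribed with the mRNAs, fell at passage 11 by 1.33 and 0.98 (adj. P-values 0.0058 and 0.0148), whereas neither was called between domes and suspension.

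The culture and passage experiments share no samples, so their values can be set side by side. Of 81 nuclear genes tested in both, 73 had a positive value in both, and 9 were called higher in both: Ndufa8, Ndufb2, Ndufb8, Ndufb10 and Ndufv3 of complex I, Sdhd of complex II, Uqcr11 and Uqcrc1 of complex III and Cox6a1 of complex IV. Not all of these calls were stable. Sdhd lost its culture call with the shared pools modelled (adj. P-value 0.0609), with DESeq2 (0.0715) and on thinned libraries (0.0589). In the passage experiment Cox6a1 lost its call in all 6 fits without 1 library and Ndufv3 in 5 of 6, and both lost it on thinned libraries (0.0632 and 0.118) and with either technical replicate alone. Of 11 mitochondrial genes tested in both, 10 were negative in both and mt-Nd2, mt-Nd4l and mt-Nd5 were called in both. Cycs was called in both in opposite directions. How many of all genes had the same sign or a call in both was not counted, so these counts are not read as particular to the members. Of other genes of like abundance, 586 of 758 had a positive value in domes and 584 of 1018 at passage 11. Uqcr11, a small subunit of complex III, shows the common pattern, with 666, 516 and 616 CPM in domes against 362, 340.0 and 322 CPM in suspension, and 587, 554 and 502 CPM at passage 11 against 299, 387 and 379.9 CPM at passage 4. The groups did not overlap in either experiment. Taken singly, this was so for 6020 of all 12699 genes in the culture and 5424 of all 13738 in the passage experiment.

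**Figure D4:**
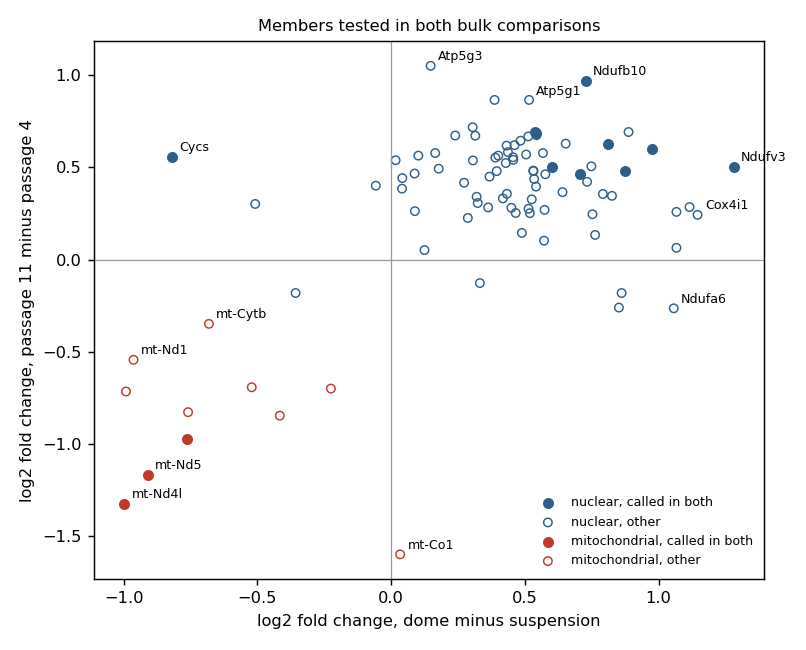
Log2 fold-change of each gene between domes and suspension (x axis) and between passage 11 and passage 4 (y axis), with nuclear genes in blue, mitochondrial genes in red and genes called in both comparisons filled. Most nuclear genes (73 of 81) lie in the upper right and most mitochondrial genes (10 of 11) in the lower left, and Cycs was called in opposite directions.

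As members moved together, their promoters were searched for short motifs known from genes of this pathway. Windows from 250 bases before to 50 after the start of transcription were taken from RefSeq for GRCm38.p6, where 67 of the 85 nuclear members had one. Motifs were read on both strands. The palindrome CGCATGCG, part of the site of the nuclear respiratory factor NRF1, was found in 14.9% of members and in 2.07% of 27025 genes. The ETS motif CCGGAAG, bound by the GABP factor among others, was found in 23.9% against 9.93%, AAGATGGC (YY1) in 13.4% against 3.19% and CAAGGTCA (ERR) in 5.97% against 1.76%. At least 1 of the 4 was present in 46.3% of members and 15.7% of all genes, and in 6 of the 9 genes called higher in both experiments. A match describes letters in the window and not a site in use. The windows of 3 of these 9 genes are shown in the direction of the gene because together they hold the NRF1, ETS and ERR letters, which are in capitals. In Cox6a1 and Uqcr11 the capitals are an NRF1 and an ETS match, and in Sdhd an ETS match followed by an ERR match near its end.
Cox6a1, chr5:115348909-115349208 (-): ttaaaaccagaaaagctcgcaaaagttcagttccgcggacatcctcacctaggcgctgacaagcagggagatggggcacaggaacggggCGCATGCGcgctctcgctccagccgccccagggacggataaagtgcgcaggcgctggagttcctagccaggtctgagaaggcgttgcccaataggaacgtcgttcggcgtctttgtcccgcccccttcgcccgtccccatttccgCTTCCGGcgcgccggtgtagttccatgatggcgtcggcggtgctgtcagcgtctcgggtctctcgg
Uqcr11, chr10:80406772-80407071 (-): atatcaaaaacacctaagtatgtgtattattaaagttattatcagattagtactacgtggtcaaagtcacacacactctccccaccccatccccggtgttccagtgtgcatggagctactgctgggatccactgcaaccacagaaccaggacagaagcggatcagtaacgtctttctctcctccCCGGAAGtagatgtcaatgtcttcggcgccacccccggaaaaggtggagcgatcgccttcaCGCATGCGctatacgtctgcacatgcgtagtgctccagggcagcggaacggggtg
Sdhd, chr9:50603800-50604099 (-): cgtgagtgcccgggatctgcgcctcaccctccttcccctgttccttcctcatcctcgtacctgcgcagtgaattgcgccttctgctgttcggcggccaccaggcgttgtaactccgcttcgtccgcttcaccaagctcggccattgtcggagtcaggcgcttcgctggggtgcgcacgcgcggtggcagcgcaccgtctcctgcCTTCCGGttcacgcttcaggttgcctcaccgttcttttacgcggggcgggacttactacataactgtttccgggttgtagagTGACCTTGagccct

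Cox6a1, whose window is the first shown, measured 782, 881 and 944 CPM in domes against 552, 549 and 495 CPM in suspension. Its values at passage 11 were 1536, 1416 and 1525 CPM and at passage 4 932, 1249 and 1057 CPM. The groups of Cox6a1 overlapped in neither experiment. Taken singly, a lack of overlap was seen in 6020 of all 12699 genes in the culture and 5424 of all 13738 in the passage experiment.

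Lists of other nuclear genes of mitochondria are read here against the share of all genes called in domes, 15% higher and 14.7% lower, and a share near it is no result about a list. In domes, the assembly factors had 6 of 46 tested genes higher and 2 lower (median −0.05, Atpaf2 at −1.17), the mitochondrial ribosome 6 of 81 higher and 3 lower (0.01, Mrpl13 at −1.62 and Mrpl14 at 1.29) and the tricarboxylic acid cycle 4 of 14 higher and none lower (0.24). Genes that maintain and transcribe mitochondrial DNA had 2 of 32 higher and 6 lower (−0.44), and the called genes past a log2 fold-change of 1 were Pnpt1 (−1.63), an exoribonuclease, the RNA-binding proteins Fastkd2 (−1.31) and Fastkd3 (−1.17), Tfb2m (−1.31), a transcription factor of the mitochondrial promoters, and the nuclease Mgme1 (−1.22). Of the regulators of mitochondrial biogenesis Esrra, an ERR receptor, rose by 1.41 (adj. P-value 0.00404), Gabpb2, a GABP subunit, fell by 1.57 and Nrf1 fell by 0.73 (0.0368), while Ppargc1a gave −0.54 (0.503).

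At passage 11, where 10.1% of all genes were called in each direction, the mitochondrial ribosome, which translates the 13 mitochondrial mRNAs, had 28 of 81 genes higher and none lower (0.31) and the assembly factors 9 of 45 higher and none lower (0.26). The tricarboxylic acid cycle had 2 of 14 higher (0.27). The list of mitochondrial DNA maintenance and transcription had 2 of 32 higher and 2 lower (0.15), with Pnpt1 at −1.23, Fastkd3 at 1.13 and Mgme1 at 1.01. None of 12 regulators of biogenesis was called (−0.16). Whether a list differs between the 2 experiments was not tested.

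The sets of single organoids were fitted together over 13927 genes with adjustment over the 3 contrasts. Against Sets 2 to 4, Set 1, the only set at passage 11, had 1 of 81 nuclear genes higher (9.35% of all genes were called higher) and 1 of 13 mitochondrial genes lower (6.84% called lower), with medians of −0.07 and −0.20. Set 4 against Sets 2 and 3 had 11 nuclear genes higher and none lower (7.27% and 9.99% of all genes) and no mitochondrial call, with medians of 0.26 and −0.13. Set 2 against Set 3 had 7 nuclear genes higher and none lower (2.12% and 1.92% of all genes) and no mitochondrial call, with medians of 0.29 and −0.08. In each of the last 2 contrasts 74 of the 81 nuclear genes had a positive value. Of 1193 other genes of like abundance the medians in the 3 contrasts were 0.00, 0.08 and 0.03. In the same order 107, 198 and 43 of them were called higher and 42, 119 and 25 lower. In Set 4 the nuclear members were thus not called higher more often than other abundant genes.

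In Set 1, Ndufa6, an accessory subunit of complex I, ranged from 359.5 to 1059 CPM with a median of 487 CPM, against medians of 342, 348 and 389 CPM in Sets 2, 3 and 4 (0.68, SE 0.17, adj. P-value 0.00482). mt-Nd3 ranged from 18.2 to 31.8 CPM with a median of 23.6 CPM, against medians of 32.5, 29.0 and 38.7 CPM (−0.62, adj. P-value 0.0211). The mt-Nd3 call was lost when its chromosome 1 copy was added (−0.41, adj. P-value 0.208). For both genes the ranges of the sets overlapped.

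The 3 genes with the largest increase in Set 4 against Sets 2 and 3 were Ndufa4, a subunit of complex IV (lowest, median and highest of 283, 487 and 999 CPM in Set 4, medians of 312 and 265 CPM in Sets 2 and 3, 0.74, adj. P-value 0.0309), Atp5g2 (58.4, 96.9 and 141 CPM, medians of 61.3 and 49.9 CPM, 0.62, adj. P-value 0.0242) and Atp5e (341, 571 and 1083 CPM, medians of 376 and 404 CPM, 0.61, adj. P-value 0.0107). In Set 2 against Set 3 they were Atp5d (1292, 1769 and 3653 CPM against 1131, 1201 and 1365 CPM, 0.68, adj. P-value 0.026), Cox8a (0.62, 0.0369) and Atp5k (0.61, 0.0439). All of these ranges overlapped between sets. Both contrasts depended on single organoids of Set 3. Leaving out 1 of these 5 organoids took the nuclear calls of Set 4 down to 1, 2 or 3 (organoids 6, 3 and 4). It took those of Set 2 to 0 or 1 (organoids 3, 4, 5 and 6). Organoids of the other sets were not left out in turn, so whether the calls depend on them as much was not tested. In none of the 5 comparisons was a mitochondrial gene called higher. The mitochondrial ribosome had 2 of 81 genes higher and 1 lower in Set 1 (median −0.06), 15 higher and 1 lower in Set 4 (0.20) and 4 higher and 1 lower in Set 2 against Set 3 (0.19), while Malat1 was higher in Set 1 (0.89) and lower in Set 4 (−0.95).

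Among organoids of the same set the members varied in a common way. Over 35 organoids, as deviations of log2 CPM from the mean of the set, 77 nuclear genes of an average log2 CPM of 5 or more had a mean pairwise Pearson's r of 0.719, and within Sets 1 to 4 it was 0.689, 0.771, 0.612 and 0.732. For 1193 other genes of like abundance the mean was 0.032, for 9 mitochondrial genes 0.332 and for pairs of 1 mitochondrial and 1 nuclear gene −0.042. With the copies added, 12 mitochondrial genes gave 0.343 among themselves and 0.189 with nuclear genes, so that the sign of the latter depended on the copies. These correlations describe points that share a library, its depth and its RNA input, and no test is attached. Atp5g3 (0.99), Ndufb10 (0.98) and Cox4i1 (0.97) followed the mean of the nuclear genes most closely among the genes named, Cycs followed it less (0.54) and Ndufs1 was inverse (−0.39). The nuclear mean spanned 0.966, 0.98, 0.418 and 0.96 log2 units within Sets 1 to 4.

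The mean of the nuclear genes also went with the mitochondrial ribosome and the cytosolic ribosome (0.93 each), against Malat1 (−0.69), Neat1 (−0.64) and mt-Rnr2 (−0.69), and less with Krt19 (0.58) and total counts (0.37). What part RNA quality or input had in this pattern was not tested.

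The mitochondrial genes did not behave as 1 unit. Against the nuclear mean, mt-Nd5 gave an r of −0.81 and a Spearman's rho of −0.87, and −0.93, −0.78, −0.86 and −0.79 within Sets 1 to 4. Without the 2 organoids farthest from the median of the nuclear mean, organoid 15 of Set 4 and organoid 6 of Set 1, r was −0.82. mt-Nd4l gave −0.79, with −0.85, −0.68, −0.90 and −0.92 within sets. mt-Nd6, encoded opposite to mt-Nd5, gave −0.44, with −0.58, −0.59, −0.78 and 0.27 within Sets 1 to 4, so its sign differed in Set 4. mt-Nd2 and mt-Nd4 gave 0.09 and 0.08. mt-Nd1 and mt-Cytb went with the nuclear mean (0.63 and 0.58), and so did the sums of gene and copy for mt-Atp6 (0.79), mt-Co1 (0.75), mt-Co2 (0.71), mt-Co3 (0.62) and mt-Nd3 (0.50). Within Sets 1 to 4 mt-Atp6 with its copy gave 0.95, 0.79, 0.71 and 0.75, and mt-Cytb gave 0.69, 0.69, 0.57 and 0.20. mt-Nd4l and mt-Nd5 varied together (0.92), whereas mt-Nd5 and mt-Cytb were inverse (−0.44). As deposited, without its copy, mt-Co1 gave −0.28, and the mean over mitochondrial genes as deposited gave −0.15 against the nuclear mean.

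**Figure D5:**
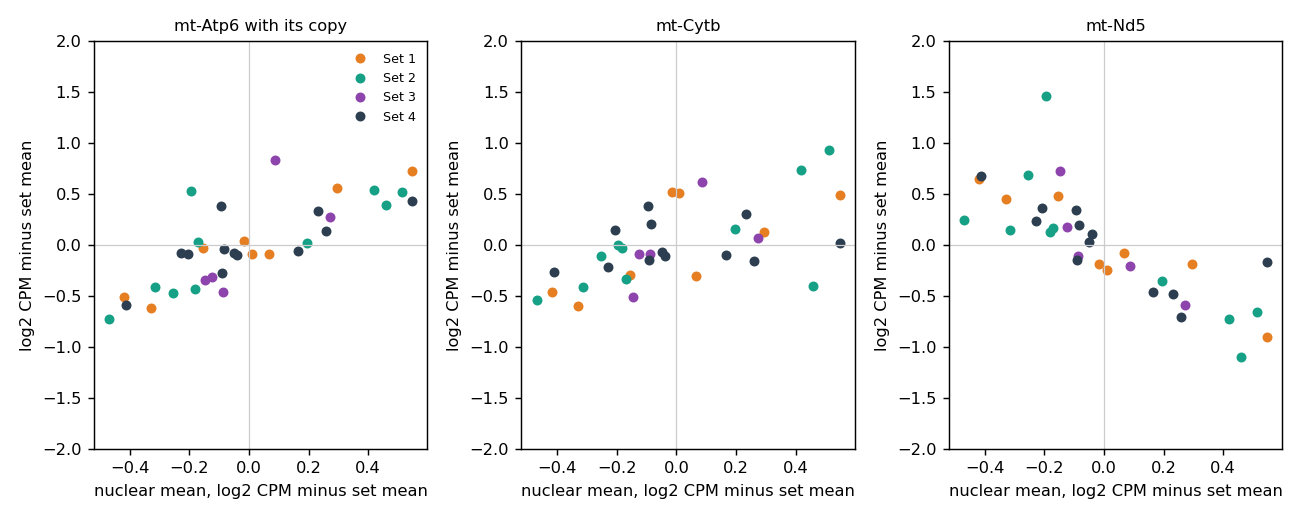
Single organoids, as deviations from the mean of their set in log2 CPM, with the mean of the nuclear encoded genes on the x axis and mt-Atp6 with its copy, mt-Cytb or mt-Nd5 on the y axis, coloured by set. Over the 35 organoids mt-Atp6 with its copy rises with the nuclear mean (r = 0.79), mt-Cytb does so less (0.58) and mt-Nd5 falls (−0.81).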

How the data were processed

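The authors sequenced 3′-end libraries with UMIs of bulk cultures and single organoids and processed them with zUMIs; the submitters' processing notes name STAR, SAMtools 1.9, featureCounts, R 3.6.3, edgeR 3.28.1, limma 3.42.2 and mm10 (GRCm38). The deposited values are whole-number gene counts per sample, in 3 tables. Whether they are UMIs or reads, whether they were taken before or after the down-sampling described in the methods, whether strand was used and how multi-mapped reads were counted are not given in the sources used here, and each could move counts between a gene and its copy.

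All 60 samples were grouped by their labels, and 53 were compared. Low genes were removed by filterByExpr (min.count 3), libraries were normalised by TMM and genes were tested with the quasi-likelihood test of edgeR 4.0.16 (R 4.3.3) over all genes kept, with Benjamini-Hochberg adjustment and a threshold of 0.05. The limma-voom pipeline of the study was an alternative here (limma 3.58.1). Bulk comparisons had 1 term for condition and 3 against 3 samples. The 4 sets were fitted in 1 model and adjusted over 3 contrasts. CPM are per 1000000 counts of the TMM-scaled library. Biological replicates came from separate pools or mice in the bulk experiments, but organoids of 1 set share a mouse, so their adj. P-values measure the spread between organoids and not between mice. Technical replicates differed by 1.08 to 2.55 chi-square per degree of freedom and were summed.

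The same number was taken to mark the same pool in the culture experiment, where the labels give a number but name no pool. In the passage experiment it marks the same set and so the same mouse. Residuals of pairs correlated at 0.153, 0.165 and 0.191 in the former and 0.11, 0.0283 and 0.108 in the latter, and fits with the number as a block were run. Named genes were the 13 mitochondrial genes, paralog sets, complex II, core subunits and the 3 largest called changes in each direction. Others named, among them the genes called in both bulk comparisons, were chosen after their values were seen. The mitophagy list is not reported here. The members, lists and tests were chosen with earlier results of these data known. Copies were found with blastn 2.17.0, and tables and figures were made with Python 3.11.15 and pandas 2.3.3.

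Alternatives were RLE size factors, limma-voom, DESeq2 1.42.0, no filter, a stricter filter (count of 10), thinning to the smallest total, the block, leaving out single libraries, 1 technical replicate, all 42 organoids, adjustment within contrasts and fits of only the sets compared. Adding the copies was chosen after seeing the data. In simulated data, 29%, 63% and 89% of genes changed by 1 log2 unit and 92%, 96% and 100% of those changed by 2 were recovered for the culture, passage and Set 1 comparisons, and 9.7%, 10.2% and 2.07% of the calls were false.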

Additional observations from a re-analysis of the deposited data

Results flagged for a closer look

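Values of single organoids were checked for samples that stand apart within groups of 4 to 10, and 15 of 150 groups held one, which is 10%. Chance gives about 1 in 20 only for independent values of normal shape, whereas genes of 1 organoid vary together. An excess over chance was therefore not shown. Each flagged value was the highest of its group. Set 4, with 12 organoids used, was not checked. In Set 3 organoid 5 had a mitochondrial share of 3.51% of its counts, while the other 4 lay between 2.16% and 2.52%. Organoids 10 and 11 of Set 2 account for 10 of the 15.

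Organoid 10 of Set 2 stood above all others of its set in mitochondrial genes. It had 2882 CPM of mt-Co1 (others 579 to 967), 2382 CPM of mt-Nd2 (others 845 to 1303), 1048 CPM of mt-Nd4l (others 192 to 487), 2545 CPM of mt-Nd5 (others 432 to 1487) and 1374 CPM of mt-Nd6 (others 418 to 690). Organoid 5 of Set 1 had 1541 CPM of mt-Co1 (others 683 to 949) and 9092 CPM of mt-Nd4 (others 4718 to 6186).

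Organoid 11 of Set 2 stood apart in nuclear genes, with 853 CPM of Atp5b (others 269 to 565), 698 CPM of Atp5e (others 249.9 to 462), 790.5 CPM of Ndufa4 (others 153 to 430), 111 CPM of Sdhc (others 39.1 to 76.7) and 32.8 CPM of Sdhd (others 14.3 to 21.0). Organoid 1 of Set 3 had 502 CPM of Ndufa6 (others 316 to 366) and 568.5 CPM of Uqcrh (others 353 to 400.2).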

How the results depend on the processing

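Medians of the mitochondrial and nuclear genes kept their sign under each alternative run, and no called result changed direction. Of the values of single genes under the alternatives, 3473 stayed on their side of the threshold, 192 lost the call and 66 gained it. The 3473 include genes called in neither fit, so these numbers do not give the share of calls that was lost. Counts of calls moved more. With 1 library left out, domes against suspension had 0 to 7 mitochondrial and 3 to 33 nuclear calls in place of 6 and 24, and passage 11 against passage 4 had 5 to 10 and 16 to 35 in place of 7 and 39. In the latter, no filter gave 11 mitochondrial calls. For the paired samples, the replicate block gave 6 mitochondrial and 27 nuclear calls between culture methods and 10 and 41 between passages.

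In single organoids the number is no pairing (35 pairs of the same number in different sets had a median correlation of 0.056). There the block left no call among the mitochondrial genes of Set 1 and the nuclear genes of the other contrasts, 0 in each. For Set 1, the 1 mitochondrial call became 2 with RLE, a minimum count of 10, DESeq2 or adjustment within the contrast, 0 with the copies added or all 42 organoids, and 1 to 2 without 1 organoid of Set 3. For Set 4, 11 nuclear calls became 7 without a filter, 5 on thinned libraries, 0 with all 42 organoids and 1 to 13 without 1 organoid of Set 3. For Set 2 against Set 3, 7 nuclear calls became 2 with limma-voom and 0 to 5 without 1 organoid of Set 3. They became 0 without a filter, with all 42 organoids, with adjustment within the contrast or with only those sets fitted. DESeq2 called 1 mitochondrial gene in that contrast, and 0 to 1 were called without 1 organoid of Set 3. Causes were not tested.

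Counts over all genes moved too. Between passages 2784 became 1811 on thinned libraries and 1717 with technical replicate 1 only. For Set 4 2404 became 961 with the block, 1442 thinned and 1146 with all 42, for Set 1 2254 became 1259 thinned, and for Set 2 against Set 3 563 became 252 with all 42. Low counts in their own rows limit mt-Co2, mt-Atp8, Cox6a2, Cox4i2 and Ndufa4l2, for which a few counts decide a value. For mt-Co2 this is not a matter of depth alone, as most counts stood in the row of its chromosome 1 copy.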

Other observations

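The 7 organoids left out of the comparisons had the following shares. Organoid 9 of Set 1 had 2.61% of its counts in mitochondrial and 2.61% in nuclear genes, and organoid 10 of Set 1 had 3.62% and 3.80%. Organoid 8 of Set 2 had 3.42% and 3.54%, and organoid 2 of Set 3 had 3.29% and 3.60%. In Set 4, organoids 4, 8 and 10 had 2.50% and 2.24%, 2.28% and 2.47%, and 2.73% and 2.51%. Their totals ranged from 666660 to 1152914 counts.

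A second set of nuclear copies on chromosome 2 was also counted. Gm13340, 97.605% identical to mt-Co1 over 1545 bases, had 16417, 8375 and 141939 counts in the culture, passage and single-organoid tables, and mt-Co1 had 23211, 9829 and 107542.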
